A study of Mus musculus with 4 samples.

Results

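The genes described here are 30 genes of the p53 pathway: p53 itself (Trp53), its regulators and genes that p53 is known to switch on. They were chosen by gene symbol from the deposited expression table of leukemia cells labelled WT or Ybx1 knockout. All 30 are among its 55339 rows, and 29 are among the 17303 genes that could be tested. The 30th, Eda2r, a gene of the TNF receptor family, is listed at 0 in all 4 libraries. The cells came from the bone marrow of C57BL/6 mice. There were 2 WT libraries (replicates 4 and 5) and 2 libraries of genotype YBX1-/-, called cKO in their titles (replicates 1 and 3, here called knockout). In the titles, knockout replicate 3 is marked RNA-seq2 and the other 3 libraries RNA-seq1. What started the leukemia, how and in which cells Ybx1 was deleted, the age of the mice and any treatment are not given in the sources used here. Nothing says that replicates came from separate mice, so p-values reflect the spread among these libraries alone, which could be technical.

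p53 is a transcription factor that is held low by the ubiquitin ligase Mdm2 and its partner Mdm4, and is released when DNA is damaged or growth signals are abnormal. It then switches on genes that stop the cell cycle, repair DNA, change metabolism or start apoptosis. Mdm2 is itself a p53 target, which closes a negative feedback loop. In myeloid leukemia the state of this pathway bears on how cells respond to stress, and the series title frames loss of YBX1, an mRNA-binding cold-shock protein, as a question of leukemia cell survival and mRNA stability.

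The values are log2 expression as the authors normalized it. Without counts, how deeply each library was sequenced is unknown. Ybx1 was at 7.29 and 8.33 in knockout replicates 1 and 3, 10.002 in WT replicate 5 and 19.70 in WT replicate 4, so both knockout libraries were lower than both WT libraries. With all 4 libraries limma did not call it (difference -7.04, adjusted p = 0.826). Without WT replicate 4 the difference was -2.19, and whether limma called it depended on the filter for low values. The authors' deposited table called Ybx1 lower, at -9.50 log2 (adjusted p = 3.06e-04), with WT replicate 4 by far the larger WT value. Ybx1 RNA was not at 0 in the libraries labelled knockout. Of 12 fixed markers of leukemic myeloid cells, 11 were at 5 or more in every library. The 12th, Kit, ranged from 3.56 to 5.35. Of the T and NK markers, Cd3e, Cd3g, Cd4 and Cd8a were listed at 0 throughout, while Lck was at 3.72 to 5.20 and Cd3d at 0.54 to 2.59. Of the B-cell markers, Ms4a1, Pax5, Vpreb1 and Ebf1 were at or below 0 in all 4 libraries, while Cd79b was at 5.16 to 7.41 and Cd79a at -0.41 to 4.12. Also at or below 0 in all 4 were 3 of 9 erythroid, 1 of 5 megakaryocyte and 4 of 7 stromal and endothelial markers. Log2 of the summed linear level of the erythroid markers was 2.69 to 4.77 outside WT replicate 4 and 6.95 in it. For the T and NK markers it was 8.49 to 9.53 outside WT replicate 4 and 19.38 in it, where Nkg7 alone was at 19.38. For the B-cell and the stromal and endothelial markers it was 5.80 to 7.43 and 6.15 to 7.14 over all 4 libraries. For the megakaryocyte markers it was 5.50 in WT replicate 5, 3.47 in WT replicate 4, and 3.63 and 2.29 in knockout replicates 1 and 3, with Itga2b at 5.41, 2.47, 3.26 and -0.71 in the same order. The part of other cell types in the results was not tested, and in bulk samples fewer cells of a type and less RNA per cell cannot be told apart.

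WT replicate 4 stood apart in the p53 genes, and many of its values fell on a few narrow bands. Of 1737 tested genes whose median in the other 3 libraries was from 8 to below 9, 830 (47.8%) lay between 5.07 and 6.08 in WT replicate 4, 418 (24.1%) between 7.17 and 7.70, and 161 (9.27%) between 8.07 and 8.45. A further 122 (7.02%) were spread from 8.64 to 10.21, and 195 (11.2%) were at 12.03 or higher. Smaller groups of genes were not tallied, so whether the spaces between the bands were empty is not shown. The bands were noticed only once the values had been seen. The p53 genes with a median in that range lay on these bands: Mdm2, Mdm4, Xpc and Plk3 at 5.74, 5.64, 5.58 and 5.70, and Plk2 at 8.26. Of 21 p53 genes whose median elsewhere reached 5, 13 lay between 4.47 and 5.83 in WT replicate 4, while their values in WT replicate 5 spanned 5.21 to 9.57. Tigar, Aen and Trp53, whose medians lay outside that range, were at 7.03, 7.46 and 8.38. Cdkn1a, Sesn2 and Ei24 were at 21.58, 20.85 and 17.55, over 3 log2 above the median of the other libraries, as were 11.3% of all tested genes. Another 14 of the 29 lay over 1 log2 below that median, against 29.3% of all tested genes. Neither share is matched for level: the median level in the other libraries was 6.69 over the p53 genes and 5.35 over all tested genes. Whether the banded values are measured levels was not tested, so differences below are given both with all libraries and from WT replicate 5 alone.

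**Figure D1:**
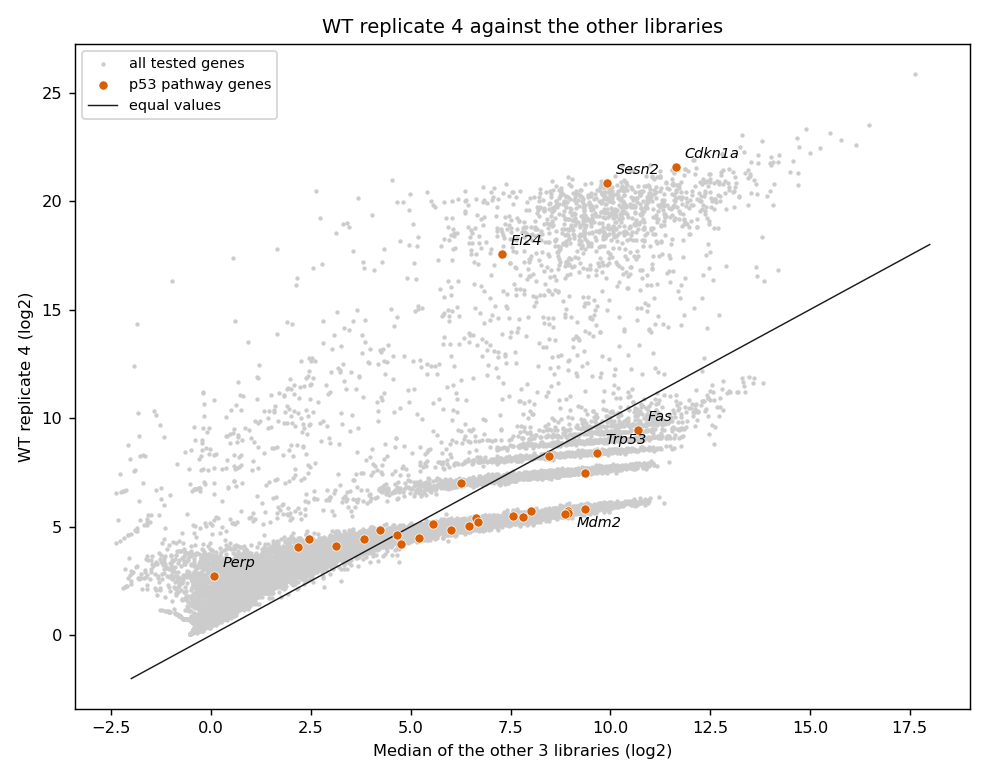
Log2 value in WT replicate 4 (vertical axis) against the median log2 value of the other 3 libraries (horizontal axis) for 17303 tested genes (grey) and 29 p53 pathway genes (orange), with a line of equal values. The grey points form narrow bands below the line and a cloud near 20, and Cdkn1a, Sesn2 and Ei24 lie in that cloud while 13 of the other p53 genes lie low, between 4.47 and 5.83.

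Where 2 values stand against 2 others, they are those of knockout replicates 1 and 3 against those of WT replicates 5 and 4, in that order. The comparison of knockout with WT asks how p53 pathway transcripts differ between leukemia cells labelled as YBX1 knockout and WT. No p53 gene passed limma's test at an adjusted p under 0.05, whether WT replicate 4 was kept or left out, and the genes lay on both sides. With both WT libraries, 2 of 29 genes (Cdkn1a and Perp) had both knockout values under the lower WT value, against 18.8% of all tested genes. Another 6 of 29 (Ccng1, Sesn1, Plk3, Fas, Xpc and Ppm1d) had both above the higher WT value, against 17.3% of all. Against WT replicate 5 alone, 8 of 29 had both knockout values below it (33.4% of all tested genes) and 10 had both above it (41.8%). The 8 were Mdm2, Cdkn1a, Perp, Plk2, Polk, Rrm2b, Gdf15 and Fdxr. The 10 were Ccng1, Trp53inp1, Zmat3, Sesn1, Ei24, Plk3, Fas, Ddb2, Xpc and Ppm1d. In 4 of 29 the knockout libraries were below WT replicate 5 by more than they differed from each other (Mdm2, Cdkn1a, Perp and Polk, 18.6% of all tested genes). In 6 of 29 they were above it by more than that (Ccng1, Trp53inp1, Zmat3, Ei24, Xpc and Ppm1d, 20.5% of all). These shares of the p53 genes were close to or below the shares of all tested genes.

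Limma called 0 of 17303 genes (0%) with all libraries, and 534 lower (3.09%) and 117 higher (0.676%) had an unadjusted p under 0.05. Without WT replicate 4 it also called 0 (0%), with 4.99% lower and 5.4% higher at an unadjusted p under 0.05. Among the p53 genes, Perp had an unadjusted p under 0.05 with all libraries, and Perp, Cdkn1a and Ccng1 without WT replicate 4. Without WT replicate 5, which leaves the banded WT replicate 4 as the lone WT library, limma called 14.5% of genes lower and 14.2% higher. There it called Cdkn1a, Sesn2, Ei24 and Perp lower and Trp53, Mdm2, Mdm4, Ccng1, Aen and Xpc higher, so those calls rest on that 1 library. The median knockout minus WT difference over the 29 genes was 0.66 in the fit of all 4 libraries and -0.10 once WT replicate 4 was left out, beside -0.09 and 0.07 over all tested genes. The sign of the p53 median therefore turned with that 1 library. These medians are not matched for level either. Among genes at log2 5 or more in at least 2 libraries, the medians with all libraries were 0.84 over the p53 genes and 0.60 over all. Knockout replicates differed by a median of 0.61 over these genes and WT replicates by 1.48, beside 0.46 and 1.40 over all tested genes.

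**Figure D2:**
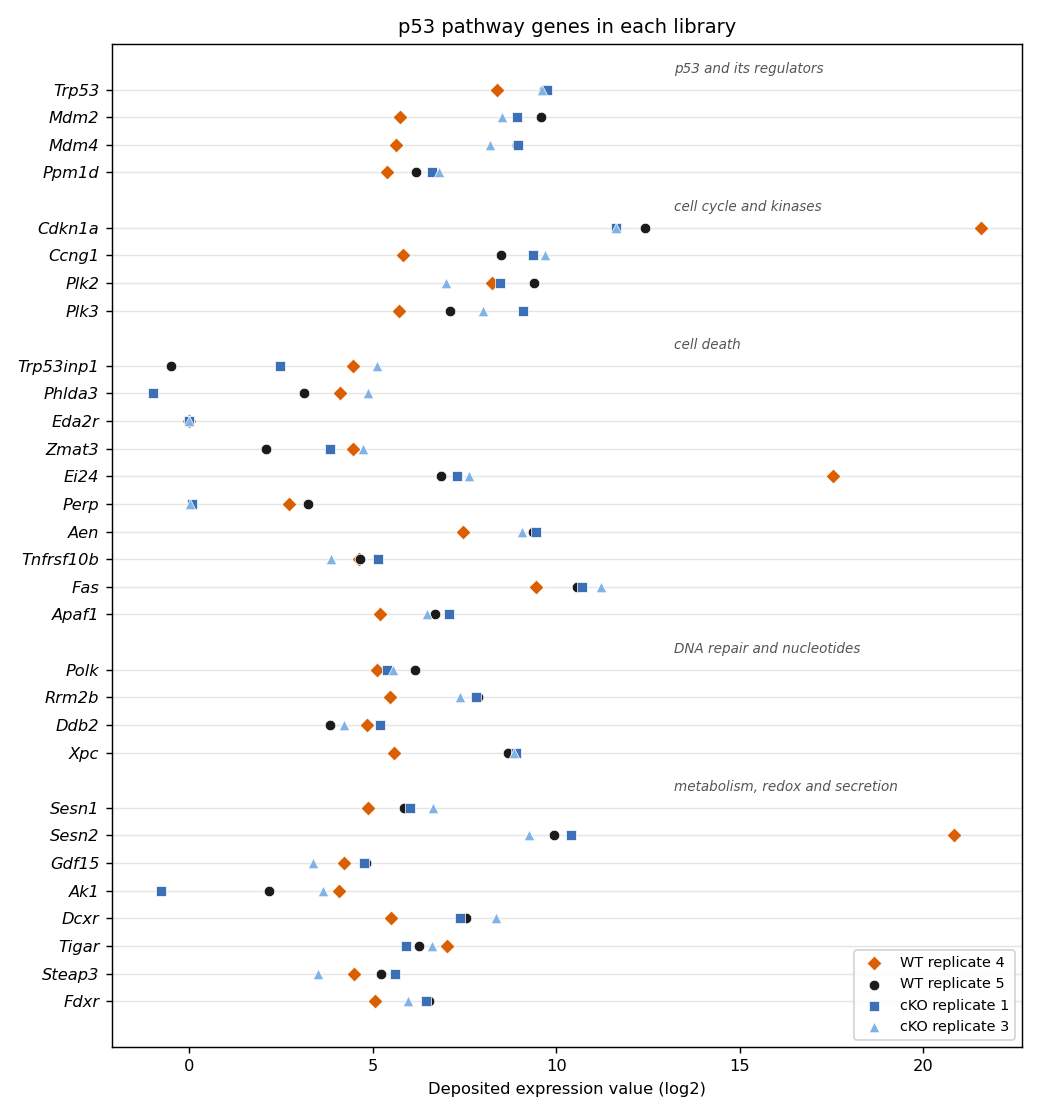
Deposited log2 expression (horizontal axis) of each of the 30 p53 pathway genes, grouped by role, in each library (1 symbol per library). WT replicate 4 (orange diamonds) lies far to the right for Cdkn1a, Sesn2 and Ei24 and over 1 log2 below the median of the others for 14 genes, while WT replicate 5 and the knockout libraries lie close together for genes such as Trp53, Aen and Xpc.

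The Trp53 transcript lay close to WT replicate 5 in both knockout libraries, and the genes that hold p53 in check lay on both sides of it. Trp53 (chromosome 11, 69580359 to 69591873, plus strand, GRCm38) was at 9.75 and 9.61 in knockout replicates 1 and 3, 9.66 in WT replicate 5 and 8.38 in WT replicate 4. WT replicate 5 lay between the 2 knockout values. The difference from WT replicate 5 was 0.02 (SE 0.20), with a 95% interval of -0.70 to 0.73, and limma's adjusted p was 0.978. With both WT libraries the difference was 0.66 (SE 0.91, 95% interval -1.73 to 3.05, adjusted p = 0.858). The narrower interval from WT replicate 5 alone assumes that this library varies like the knockout pair. The 2 knockout values of Trp53 differed by 0.14 and the 2 WT values by 1.28, so a narrow bound on its change was not reached. The transcript level does not measure p53 protein, which is mainly set by its breakdown.

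Mdm2, the ubiquitin ligase that marks p53 for breakdown (chromosome 10, 117688875 to 117710758, minus strand), was at 8.93 and 8.53 in knockout replicates 1 and 3, 9.57 in WT replicate 5 and 5.74 in WT replicate 4. The knockout values lay between the WT values, which differed by 3.83. Against WT replicate 5 the difference was -0.84 (95% interval -1.91 to 0.24, adjusted p = 0.511), and with both WT libraries it was 1.08 (adjusted p = 0.853). Mdm4, a relative of Mdm2 that blocks p53 at its targets, was at 8.97 and 8.20 against 8.94 and 5.64 in WT replicates 5 and 4. Its difference of 1.29 with all libraries became -0.36 without WT replicate 4. Ppm1d, the WIP1 phosphatase that turns off damage signalling to p53, was at 6.62 and 6.81 against 6.19 and 5.39. Both knockout values were above both WT values, with a difference of 0.93 (adjusted p = 0.826), or 0.53 (adjusted p = 0.639) from WT replicate 5.

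The cell cycle targets Cdkn1a and Ccng1 lay on opposite sides of WT replicate 5. Cdkn1a encodes p21, the inhibitor of cyclin-dependent kinases through which p53 arrests the cell cycle. It lies on chromosome 17 from 29090976 to 29100727, plus strand. Ccng1 encodes cyclin G1, a p53 target linked to feedback on Mdm2, and lies on chromosome 11 from 40748552 to 40755311, minus strand. Both have a p53 binding motif close to their annotated start. They were the 2 genes with such a match among the 23 p53 genes with an entry in RefSeq's promoter table (GRCm38.p6). A p53 site here is 2 copies of the p53 half-site decamer with no spacer and at most 1 mismatch in 20 bases, in the 250 bases before the start. The decamer is its own reverse complement, so both strands are covered. Such a site was in 25 of 27018 genes (0.0925%) and 0.0761% of 32841 windows. The stretches before the start of the 2 genes are shown on the gene's own strand, without bases that GENCODE counts as exon, with the matched site in capitals.
Cdkn1a, chr17:29090729-29090975, plus strand: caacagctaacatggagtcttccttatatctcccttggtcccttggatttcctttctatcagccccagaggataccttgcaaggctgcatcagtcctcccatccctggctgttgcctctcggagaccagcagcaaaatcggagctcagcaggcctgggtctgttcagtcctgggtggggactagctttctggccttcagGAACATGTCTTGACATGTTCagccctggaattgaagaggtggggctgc
Ccng1, chr11:40755312-40755536, minus strand: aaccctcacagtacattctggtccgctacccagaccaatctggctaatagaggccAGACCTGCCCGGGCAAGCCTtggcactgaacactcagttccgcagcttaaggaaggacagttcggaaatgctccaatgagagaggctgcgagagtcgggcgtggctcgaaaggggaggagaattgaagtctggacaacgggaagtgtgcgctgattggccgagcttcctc
Counted from RefSeq's start, the site of Cdkn1a spans bases 51 to 32 before it and that of Ccng1 bases 195 to 176. The stretches shown stop short of that start, because bases that GENCODE counts as exon are left out. Each site has 1 mismatch, in the second decamer for Cdkn1a and in the first for Ccng1. A match is a description of the letters and does not show that p53 binds there in these cells.

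Cdkn1a was at 11.64 in both knockout libraries, which differed by 0.001, at 12.41 in WT replicate 5 and at 21.58 in WT replicate 4. Neither knockout value reached the lower WT value. The difference was -5.36 (SE 5.76, adjusted p = 0.829) with both WT libraries. Against WT replicate 5 it was -0.78 (SE 0.18, 95% interval -1.43 to -0.12, unadjusted p = 0.0347, adjusted p = 0.477), a 1.71-fold lower level. In the authors' deposited table Cdkn1a was the 1 p53 gene called, at -8.76 log2 (adjusted p = 2.31e-04). That table calls 3.96% of tested genes lower and 0.157% higher. The size of that fold goes with WT replicate 4: the log2 ratio of the linear knockout and WT means was -8.95. An unclassified GENCODE gene model on the opposite strand, AC167363.2, shares exon bases with Cdkn1a.

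Ccng1 was at 9.36 and 9.70 in knockout replicates 1 and 3, 8.49 in WT replicate 5 and 5.83 in WT replicate 4, so both knockout values lay above both WT values. The difference was 2.37 (SE 1.11, adjusted p = 0.826). Against WT replicate 5 it was 1.04 (SE 0.27, 95% interval 0.07 to 2.01, unadjusted p = 0.0432, adjusted p = 0.477), a 2.06-fold higher level. In the authors' deposited table its log2 fold change was 1.76 (p = 0.0163, adjusted p = 0.123). The 2 genes thus lay apart from WT replicate 5 in opposite directions, each by more than the knockout pair differed.

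Plk3 and Plk2, polo-like kinases of the stress response, also lay on opposite sides. Plk3 (chromosome 4, 117128655 to 117133963, minus strand) was at 9.10 and 8.01 in knockout replicates 1 and 3 against 7.09 and 5.70 in WT replicates 5 and 4. Both knockout values were above both WT values. The difference was 2.16 (SE 0.85, 95% interval -0.09 to 4.41, adjusted p = 0.826), and 1.47 (SE 0.65, adjusted p = 0.552) from WT replicate 5. The authors' deposited table gave Plk3 a log2 fold change of 1.94 (p = 0.0138, adjusted p = 0.112). Plk3 shares exon bases with Tctex1d4 on the opposite strand, and whether the counting used strand is not given in the sources used here. Plk2 was at 8.46 and 6.99 against 9.39 and 8.26. Knockout replicate 1 lay between the WT values, so the groups overlapped. The difference was -1.10 (adjusted p = 0.826) with all libraries, and from WT replicate 5 it was -1.67 (95% interval -4.74 to 1.41, adjusted p = 0.585).

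**Figure D3:**
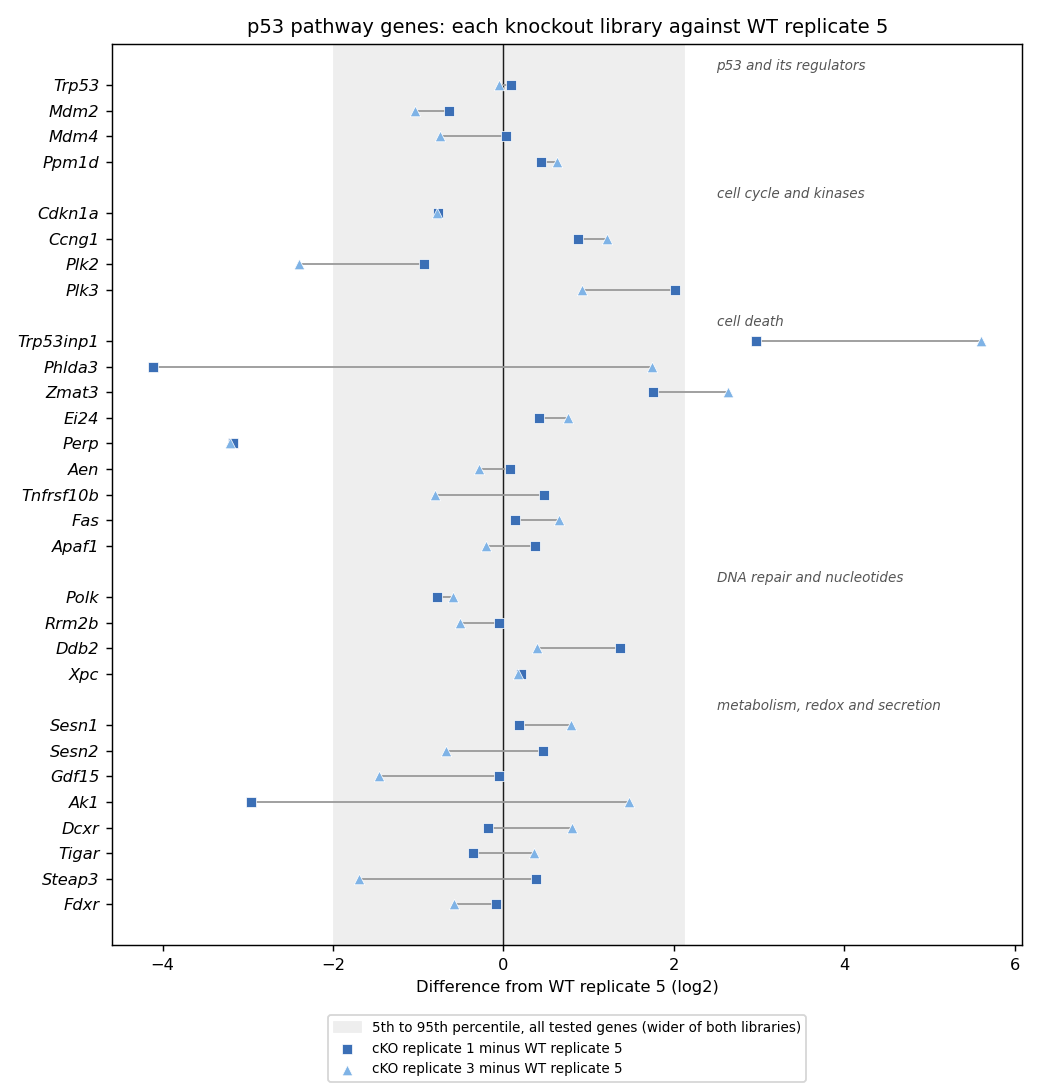
Log2 difference of each knockout library from WT replicate 5 (horizontal axis) for the 29 tested p53 pathway genes, with a line joining the 2 libraries and a grey band from the 5th to the 95th percentile of all tested genes (the wider of both libraries, -1.99 to 2.12). Most genes lie inside the band, and Perp lies left of it and Trp53inp1 right of it in both libraries. Plk2 and Zmat3 leave it in knockout replicate 3, and Phlda3 and Ak1 in knockout replicate 1. Several genes have knockout values on both sides of WT replicate 5, with the longest lines for Phlda3 and Ak1.

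Among the cell death targets, Perp had the smallest unadjusted p. Perp (chromosome 10, 18845020 to 18857073, plus strand) encodes a desmosomal membrane protein that p53 induces in apoptosis. It was at 0.06 and 0.02 in knockout replicates 1 and 3 against 3.23 and 2.71 in WT replicates 5 and 4. The groups did not overlap, and the WT values differed by 0.53. WT replicate 4 had a median of 2.56 over the tested genes that, like Perp, had a median from 0 to below 3 elsewhere. Perp's own median elsewhere, 0.06, is a knockout value at the low end of that range. Whether 2.71 is a usual value in WT replicate 4 for a gene that low was not tested. The difference was -2.93 (SE 0.60, 95% interval -4.50 to -1.35, unadjusted p = 0.0055, adjusted p = 0.826), and -3.19 (SE 0.33, adjusted p = 0.466) without WT replicate 4. Perp is a gene of low values, and near 0 the deposited scale does not show how many reads stand behind a value. In the authors' deposited table its log2 fold change was -7.97 (p = 0.0472). Its adjusted p is listed there as 1, although Usp10, with a larger p of 0.0753, has an adjusted p of 0.343. The listed 1 may therefore mean that no adjusted p was computed.

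Averaged over the knockout libraries, the receptors and the apoptosome gene lay close to WT replicate 5. Fas, the death receptor CD95, was at 10.70 and 11.21 in knockout replicates 1 and 3 against 10.56 and 9.44. Both knockout values were above both WT values, by 0.96 on average (adjusted p = 0.837) and by 0.40 from WT replicate 5 (95% interval -0.82 to 1.61). Tnfrsf10b, the TRAIL receptor, was at 5.14 and 3.85 against 4.66 and 4.62. The WT values lay between the knockout values, which differed by 1.29. The difference of Tnfrsf10b was -0.15, or -0.16 from WT replicate 5. Apaf1, the scaffold of the apoptosome, was at 7.06 and 6.48 against 6.69 and 5.19, again overlapping, with a difference of 0.83, or 0.08 from WT replicate 5. Aen, a nuclease of apoptotic cells, was at 9.43 and 9.06 against 9.35 and 7.46. Its difference was -0.11 (95% interval -1.12 to 0.91) from WT replicate 5 and 0.84 with both. None of these 4 genes passed the test in either fit.

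Ei24, a membrane protein gene of the endoplasmic reticulum linked to autophagy, was at 7.28 and 7.61 in knockout replicates 1 and 3, 6.86 in WT replicate 5 and 17.55 in WT replicate 4. It lay 0.59 above WT replicate 5 (95% interval -0.58 to 1.75) but 4.76 below the WT mean, so its direction turned with WT replicate 4. Ei24 shares exon bases with the antisense gene Gm26787. The remaining death genes had low values that differed widely between libraries. Trp53inp1, which promotes p53-driven death and autophagy, was at 2.46 and 5.11 against -0.50 and 4.45, and Zmat3, an RNA-binding zinc finger gene, at 3.83 and 4.72 against 2.08 and 4.45. Both lay above WT replicate 5, by 4.28 (95% interval -1.41 to 9.98) and 2.20 (95% interval -0.65 to 5.04), and overlapped WT replicate 4. With all libraries their differences were 1.81 and 1.01. Phlda3, an inhibitor of AKT signalling, was at -0.99 and 4.87 against 3.12 and 4.10, so the knockout pair differed by 5.86 and spanned both WT values. Its difference was -1.67, or -1.18 from WT replicate 5.

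The DNA repair and nucleotide genes lay on both sides of WT replicate 5. Xpc, the damage sensor of nucleotide excision repair, was at 8.89 and 8.86 in knockout replicates 1 and 3 against 8.68 and 5.58. Both knockout values were above both WT values, by 1.74 on average (adjusted p = 0.826), but by 0.19 from WT replicate 5 (95% interval -0.53 to 0.91). Ddb2, which hands damaged sites to Xpc, was at 5.21 and 4.22 against 3.84 and 4.84 and overlapped WT. Polk, a translesion DNA polymerase, was at 5.37 and 5.55 against 6.15 and 5.11, which placed the knockout values between the WT values. Rrm2b, the p53-induced subunit of ribonucleotide reductase, was at 7.82 and 7.37 against 7.88 and 5.45, also between them. The differences of Ddb2, Polk and Rrm2b from WT replicate 5 were 0.88, -0.69 and -0.28, with adjusted p-values of 0.733, 0.63 and 0.759. With all libraries they were 0.38, -0.17 and 0.93. Ddb2 shares exon bases with Acp2 on the opposite strand and Rrm2b with the antisense gene Gm49085.

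The metabolic, redox and secreted targets did not move together. Sesn1, a sestrin that restrains mTORC1, was at 6.02 and 6.63 in knockout replicates 1 and 3 against 5.84 and 4.87, with both knockout values above both WT values and a difference of 0.98 (adjusted p = 0.826), or 0.49 from WT replicate 5. Its relative Sesn2 was at 10.39 and 9.25 against 9.92 in WT replicate 5, which lay between them, and 20.85 in WT replicate 4. The difference of Sesn2 was -5.57 (SE 4.25, adjusted p = 0.826) with both WT libraries and -0.10 (95% interval -2.49 to 2.28) without replicate 4. Tigar, which lowers glycolytic flux, was at 5.90 and 6.62 against 6.26 and 7.03, and its difference was -0.38 with all libraries and 0.001 (95% interval -1.90 to 1.90) from WT replicate 5. Tigar shares exon bases with the antisense gene Platr31. Fdxr, the mitochondrial ferredoxin reductase, was at 6.45 and 5.95 against 6.53 and 5.05, a difference of 0.41 with all libraries and -0.33 from WT replicate 5.

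Dcxr, a dicarbonyl and xylulose reductase, was at 7.37 and 8.36 against 7.55 and 5.50. Steap3, a ferrireductase of endosomes, was at 5.60 and 3.52 against 5.21 and 4.47. Gdf15, a secreted stress cytokine, was at 4.76 and 3.35 against 4.81 and 4.21, with both knockout values below WT replicate 5. Ak1, an adenylate kinase gene, was at -0.79 and 3.64 against 2.17 and 4.07, and its knockout pair differed by 4.43. The differences of Dcxr, Steap3, Gdf15 and Ak1 were 1.34, -0.28, -0.45 and -1.69 with all libraries, and 0.31, -0.65, -0.76 and -0.74 from WT replicate 5. In these 4 genes the knockout values overlapped the WT values, and the adjusted p was at least 0.826 with all libraries.

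The authors' deposited table departed from its own sample columns in several p53 genes. Its fold change is headed as WT against cKO, but its sign was that of knockout minus WT in all but 15.7% of the 17185 tested genes with a fold, so it is taken here as the fold of knockout relative to WT. For 7 of 29 p53 genes the sign was opposite: Phlda3, Polk, Tnfrsf10b, Ak1, Tigar, Steap3 and Ppm1d. On the log2 ratio of linear means 2 of the 7, Phlda3 (0.20) and Steap3 (0.02), had the sign of the authors' deposited table, where their folds are 1.76 and 0.57. Ppm1d stood out, with a log2 fold change of -7.97 in the authors' deposited table although both knockout values were above both WT values. Sesn2, Ei24, Rrm2b and Ppm1d are listed there with a fold change but a p-value of 1, as are 9.01% of tested genes with a fold. A p-value of 1 also stands in every row without a fold, so it may mean that no p was computed rather than a test result. For Sesn2 and Ei24 the folds were -9.87 and -9.05 in the authors' deposited table, close to the log2 ratios of linear means of -9.92 and -9.10, in which WT replicate 4 is by far the larger WT value. At an unadjusted p under 0.05 the authors' deposited table has Cdkn1a and Perp lower (7.63% of tested genes) and Ccng1 and Plk3 higher (1.96%).

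**Figure D4:**
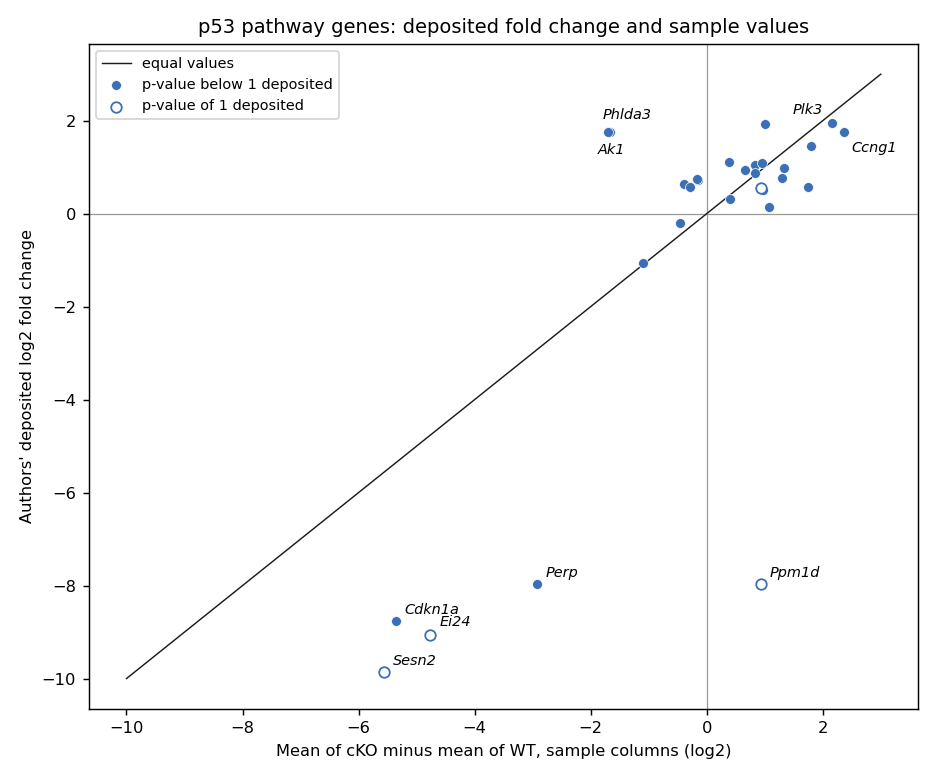
The authors' deposited log2 fold change (vertical axis) against knockout mean minus WT mean of the deposited log2 columns (horizontal axis) for 29 p53 pathway genes, with a line of equal values and open circles for genes listed with a p-value of 1. Cdkn1a, Sesn2, Ei24 and Perp lie low on the left, and Ppm1d lies at -7.97 although its sample values differ by 0.93 in the other direction.

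Other genes of the pathway, from lists fixed by symbol, also gave no called gene in limma, with or without WT replicate 4. Of 24 tested regulators of p53, 6 lay above both WT libraries and 1 below, against 17.3% and 18.8% of all tested genes. Of 21 tested genes of DNA damage sensing upstream of p53, 5 lay above and 2 below, against the same shares. Their median differences from WT replicate 5 were 0.10 and -0.11. By the naming rule, the 2 regulators with the smallest p were Wrap53 and Usp10. Wrap53, which guides telomerase RNA to Cajal bodies, was at 7.31 and 7.10 in knockout replicates 1 and 3 against 6.12 and 5.21. Usp10, a deubiquitinase of p53, was at 9.31 and 8.35 against 8.26 and 5.58. Chek1, the CHK1 kinase of the replication checkpoint, was at 7.04 and 6.63 against 5.55 and 4.93, and Etaa1, an activator of ATR, at 5.45 and 6.09 against 3.67 and 4.66. In all 4 genes both knockout values were above both WT values. The differences of Wrap53, Usp10, Chek1 and Etaa1 were 1.54, 1.91, 1.60 and 1.60 with all libraries, and those of the first 3 were 1.09, 0.57 and 1.29 from WT replicate 5, over which Etaa1 was 4.28-fold higher.

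Of 46 other tested p53 targets, 14 lay above both WT libraries and 6 below, against 17.3% and 18.8% of all tested genes. Relative to WT replicate 5 both knockout libraries were above in 21 and below in 11, against 41.8% and 33.4% of all. Their median difference was 0.24, or 0.31 from WT replicate 5. Tap1, the peptide transporter of antigen presentation, was at 7.81 and 7.40 in knockout replicates 1 and 3 against 4.67 and 5.28, a difference of 2.63 (SE 0.67, unadjusted p = 0.0129, adjusted p = 0.826). Without WT replicate 4 it was 2.93 (adjusted p = 0.466). Ckap2, a spindle protein gene, was at 7.59 and 6.53 against 4.80 and 4.86, a difference of 2.23 with all libraries and 2.26 from WT replicate 5. Calls of the authors' deposited table among the 46 were 4 in the lower direction and 2 in the higher (3.96% and 0.157% of tested genes with a fold), and included neither Tap1 nor Ckap2.

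Genes that p53 lowers through p21 and the DREAM repressor complex, all cell cycle genes, formed the last list. Of 26 tested, 12 lay above both WT libraries and 2 below, against 17.3% and 18.8% of all tested genes. The median difference was 1.45, but 17 of the 26 were over 1 log2 below the median of the other libraries in WT replicate 4, against 29.3% of all. Against WT replicate 5 alone, both knockout libraries were above it in 14 and below it in 2 (41.8% and 33.4% of all), and the median was 0.44. By more than the knockout pair differed, they were above it in 5 of 26 and below it in 0 (20.5% and 18.6% of all). Mybl2, a transcription factor of mitotic genes, was at 8.32 and 7.54 against 6.25 and 5.25. Its difference was 2.18 (adjusted p = 0.826), or 1.68 (adjusted p = 0.488) without WT replicate 4. Cdkn1a, the gene between p53 and this list, lay 0.78 below WT replicate 5 in the same libraries. No relation between the 2 was tested.

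Exact matches to a single p53 half-site decamer were found in 9 of the 23 p53 genes with a promoter entry (39.1%) and in 2216 of 27018 genes (8.2%). By window they were in 9 of 35 windows of these p53 genes and in 2341 of all 32841 windows (7.13%). The windows precede RefSeq's starts, of which a gene can have several. The matches of Aen, Ei24, Polk and Sesn1 lie inside the span that GENCODE gives for the gene. Besides Cdkn1a and Ccng1 they are shown here to set the letters beside the levels given above, in capitals on the gene's own strand.
Trp53, chr11:69580284-69580293: GGACTTGCCC
Mdm2, chr10:117710935-117710944: GAACTTGCCT
Ppm1d, chr11:85311122-85311131: GAGCTTGCTC
Aen, chr7:78895937-78895946: GGGCTTGTCC
Ei24, chr9:36797335-36797344: GGGCATGCCC
Polk, chr13:96519409-96519418: GAACTAGCCT
Sesn1, chr10:41887266-41887275: AAGCTTGTTT
These 7 genes lay on both sides of WT replicate 5: Ppm1d, Ei24 and Sesn1 with both knockout values above it, Mdm2 and Polk with both below, and Trp53 and Aen around it. Many of the p53 genes are textbook targets of p53, and the motif shares describe RefSeq's sequences, not the libraries.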

How the data were processed

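Polyadenylated RNA of 4 samples was sequenced after oligo dT selection, metal-ion fragmentation and random priming, per the labels' protocols. CASAVA, HISAT2 2.1.0, featureCounts, DESeq2 and the build GRCm38 are named, without roles, in the submitters' processing notes. The authors deposited 1 table of log2 values per gene and library, whose normalization is not given in the sources used here, and their own log2 fold change, p-value and adjusted p-value. A p-value of 1 is listed in all 34729 rows without a fold and in 1565 rows with one.

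Limma 3.58.1 with a mean-variance trend (R 4.3.3) was run on the log2 values as deposited, for the 17303 genes that reached log2 0 (linear 1) in 2 or more libraries. P-values were adjusted over all of them by the Benjamini-Hochberg method, with a threshold of 0.05, and intervals are limma's at 95%. An exact permutation of 2 against 2 samples cannot go below p = 0.333. The fit without WT replicate 4 takes its spread from the knockout pair and assumes that the lone WT library varies alike. Alternatives were 2 filters, pseudocounts of 1 and 0.5, quantile normalization, median centring, no trend, and leaving out each library. The limma step was tested on simulated data, with a spread for every library taken from the knockout pair. No simulated library was banded like WT replicate 4, so that test does not show how limma handles such a library. The p53 genes, the other lists, the tests and the alternatives were chosen with earlier results of these data known. All 30 p53 genes are named, with Ybx1 and, of each other list, the called genes or else the 2 with the smallest p, of which 1 is not reported here. Gene positions and overlaps come from GENCODE M21 (GRCm38), and sequences from RefSeq's promoter table (GRCm38.p6), which held 23 of the 30.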

Additional observations from a re-analysis of the deposited data

How the results depend on the processing

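Limma called 0 genes with no filter, a filter of log2 5 in at least 2 libraries, pseudocounts of 1 and 0.5, quantile normalization, median centring, or no trend. Leaving out 1 library moved the count of called genes between 0 and 4960, and the count of called p53 genes between 0 and 10. The highest counts came without WT replicate 5 (2452 higher and 2508 lower, 14.2% and 14.5% of genes), where WT replicate 4 was the lone WT library and Trp53, Mdm2, Mdm4, Ccng1, Aen and Xpc were called higher and Cdkn1a, Sesn2, Ei24 and Perp lower. Without knockout replicate 3 it called 88 genes, and without knockout replicate 1 26, no p53 gene among them. Without WT replicate 4 and with the log2 5 filter it called 100 of 9058 genes, again no p53 gene.

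Single genes whose direction turned when 1 library was left out ranged, as knockout minus WT on the log2 scale, from -0.84 to 2.99 (Mdm2), -0.36 to 2.94 (Mdm4), -0.67 to 4.28 (Trp53inp1), -4.60 to 1.26 (Phlda3), -0.17 to 2.20 (Zmat3), -10.11 to 0.59 (Ei24), -0.11 to 1.79 (Aen), -0.69 to 0.35 (Polk), -0.28 to 2.14 (Rrm2b), -1.16 to 0.25 (Gdf15), -0.79 to 0.50 (Tnfrsf10b), -3.91 to 0.52 (Ak1), -0.12 to 0.88 (Ddb2), -0.77 to 0.0014 (Tigar), -1.33 to 0.76 (Steap3) and -0.33 to 1.15 (Fdxr). After quantile normalization Gdf15, Tnfrsf10b and Steap3 turned to 0.11, 0.10 and 0.0894. The cause was not tested. The other 13 genes kept their direction in all these settings, except that Perp was not tested under the log2 5 filter. Quantile normalization, median centring and the log2 5 filter moved the median over all tested genes from -0.09 to 0.16, -0.23 and 0.60. No paired analysis was possible because the groups share no replicate number. Without counts, depth sets no limit that could be computed.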
